A study of Homo sapiens with 4 samples.

Results

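The genes described here are 10 amino acid transporters of the plasma membrane, SLC1A4, SLC1A5, SLC3A2, SLC7A1, SLC7A5, SLC7A6, SLC7A11, SLC38A1, SLC38A2 and SLC43A1, taken by their Ensembl identifiers from a table of 20323 genes. They were chosen by name, with their log2 fold changes between the groups already known, so those values are given as a description. RNA was measured in NK-92 cells, a human natural killer (NK) cell line that depends on interleukin 2 for growth and was kept here in RPMI medium with serum, β-mercaptoethanol and 100 IU/ml of it. All cells were transduced with lentivirus in polybrene and carried a lentiviral pLKO.1 hairpin, either scrambled (shscramble, called NK scramble) or directed against ADAR (shADAR1, called NK shADAR1), and the genes were read in 2 libraries of each group. The suffixes 1 and 2 of the library labels were read as replicate numbers, although the study also names its hairpins in that way. For the RNA sequencing, the study names cells with its hairpin shADAR1-2. NK scramble libraries are also called control and NK shADAR1 libraries knockdown libraries, and values of a group are given with replicate 1 first. The comparison asks which transcripts differ once ADAR1, an enzyme that deaminates adenosine in double-stranded RNA, is reduced.

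Lymphocytes take up amino acids to build protein and to keep the growth kinase complex mTORC1 active. In NK cells stimulated with interleukin 2, SLC1A5 carries glutamine in, and SLC7A5 exchanges intracellular glutamine for leucine and other large neutral amino acids. SLC7A5, SLC7A6 and SLC7A11 are light chains that reach the cell surface only when linked to the heavy chain SLC3A2, also called CD98. Many of these genes are induced by the transcription factor ATF4 when amino acids run short, and SLC7A5 and SLC1A5 are also known targets of MYC.

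Depth was similar in the 4 libraries, at 37881691 to 39960490 rounded estimated counts. Levels were compared between libraries as CPM (counts scaled to a fixed library total by the TMM method of edgeR) and between genes as FPKM, which also corrects for transcript length. ADAR had 655 and 682 CPM in the control and 575 and 482 CPM in the knockdown libraries, a log2 fold change of -0.34 (SE 0.20) with an adjusted p of 1.00 (edgeR). Its groups did not overlap, and the targeted gene itself did not pass. The study also reported the knockdown by qRT-PCR and western blotting, which were not examined here. Libraries correlated no better within a group (r = 0.981 in each) than between groups (0.981 to 0.989). All 9 NK cell markers exceeded 1 FPKM in every library, and their summed level was 3510 to 4030 FPKM in NK scramble and 3820 to 3950 FPKM in NK shADAR1 libraries. Of 6 T cell markers only CD3E did so, with a summed level of 396 to 488 FPKM in control and 452 to 555 FPKM in knockdown libraries, and CD8A and CD8B were listed at 0. The B cell, myeloid, erythroid and epithelial markers summed to at most 3.18 FPKM in any library. NK scramble replicate 1 stood apart from the other 3 libraries for most of the transporters, so fold changes of the 10 genes, and medians of the related lists, are given with and without it.

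Parts of the reference promoters are shown first because the family is known for 2 regulators, ATF4 and MYC, whose own genes are given further on. Promoter windows of 300 bases, 250 before to 50 after an annotated start, were available from RefSeq (GRCh38.p14) for 9 of the 10 genes, in 16 windows. Both strands were searched for the E-box CACGTG bound by MYC, for TGATGNAA, the core of the C/EBP-ATF response element (CARE) bound by ATF4, and for TGACNNNGC, the antioxidant response element. No base was shared between matches to different motifs. In the lines that follow, capitals mark the match and the rest is flanking reference sequence, 5′ to 3′ on the strand of the gene.
SLC1A5 E-box: gcgggagtggtCACGTGgacaggacggg
SLC7A5 E-box: gccggacgacgCACGTGctccgagctgg
SLC43A1 E-box: agcgggcgagtCACGTGcgcgtgaaact
SLC1A5 CARE: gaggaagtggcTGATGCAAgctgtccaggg
SLC1A4 CARE: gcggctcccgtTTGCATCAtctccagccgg
SLC7A1 CARE: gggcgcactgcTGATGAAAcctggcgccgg
SLC38A1 CARE: tcagacccgaaTGATGAAAagggatcagct
SLC3A2 CARE: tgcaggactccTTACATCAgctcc

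The printed stretches with an E-box, flanks included, lie on the minus strand at chr19:46787327-46787354 for SLC1A5, chr16:87869621-87869648 for SLC7A5 and chr11:57515798-57515825 for SLC43A1, and the matches start 50, 130 and 112 bases upstream of an annotated transcription start. The E-box was found in 3 of 16 windows (18.8%), and 7.26% of all 35116 promoter windows hold this motif. The stretches with a CARE, flanks included, lie at chr19:46784893-46784922 (minus strand) for SLC1A5, chr2:64989381-64989410 (plus strand) for SLC1A4, chr13:29595663-29595692 (minus strand) for SLC7A1, chr12:46266502-46266531 (minus strand) for SLC38A1 and chr11:62881725-62881748 (plus strand) for SLC3A2. The matches begin 97, 7 and 4 bases upstream of a start for SLC1A5, SLC1A4 and SLC38A1, and 7 and 37 bases downstream of it for SLC7A1 and SLC3A2. Such a match was present in 5 of 16 windows (31.2%) and in 3.62% of all windows. The antioxidant element was present in windows of SLC1A5, SLC3A2, SLC7A1, SLC7A5 and SLC7A6, again 5 of 16, and in 13.3% of all windows. No match to any of these motifs was found for SLC7A11 or SLC38A2, of which 1 had a window without a match. The other had no window and was not searched. Windows of 1 gene can overlap, and a match in these letters is not a measured binding site.

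Per length, the most abundant of the 10 transcripts was that of the glutamine transporter SLC1A5, with 142 ± 40.3 FPKM (mean ± SD over the 4 libraries). The heavy chain SLC3A2 came next, with 87.6 ± 23.6 FPKM, and was below SLC1A5 in each of the 4 libraries although their ranges overlapped. SLC7A1, the main carrier of arginine and lysine, had 50.4 ± 9.08 FPKM, and its range did not reach that of SLC3A2. The next 4 genes did not separate cleanly from their neighbours. SLC38A1 and SLC38A2, sodium-coupled carriers of glutamine and alanine, had 41.6 ± 7.62 and 22.1 ± 4.18 FPKM. Between them lay SLC1A4, an exchanger of alanine, serine, cysteine and threonine, with 34.1 ± 5.42 FPKM, and SLC7A5 with 33.8 ± 12.6 FPKM. SLC43A1, a facilitative carrier of leucine and its relatives that needs no heavy chain, had 12.9 ± 4.55 FPKM, and SLC7A6, which exchanges arginine for neutral amino acids, had 11.8 ± 1.51 FPKM. This pair did not differ beyond its spread, since SLC43A1 exceeded SLC7A6 in 1 of 4 libraries. The cystine and glutamate exchanger SLC7A11 was far lower, at 1.72 ± 0.585 FPKM, and 20.3% of genes tested had a lower mean than it.

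**Figure D1:**
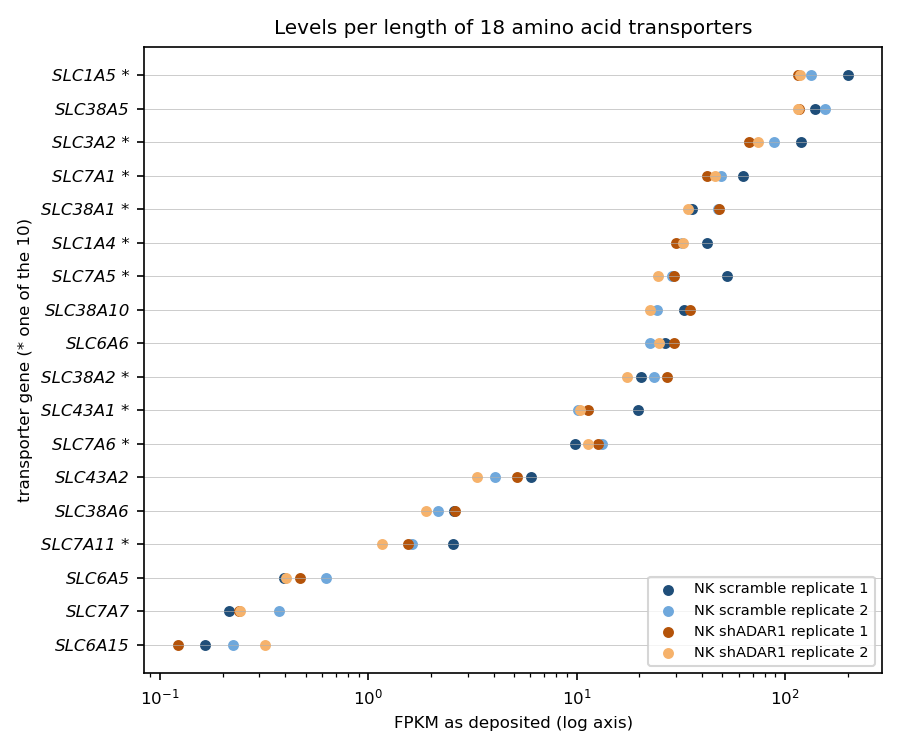
FPKM as deposited (log axis) of the 18 plasma membrane amino acid transporters with enough counts to be tested, 1 point for each library, with an asterisk at the 10 genes of the family described here. SLC1A5 and SLC38A5 lie above 100 FPKM in all 4 libraries and SLC7A11 at 1.16 to 2.54 FPKM.

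Of 33 other plasma membrane amino acid transporters, 8 had enough counts to be tested, and 12 had 0 counts in all 4 libraries, which allows a level of up to 0.0792 CPM in a library (3 counts, counting error only). SLC38A5, a carrier of glutamine, histidine and asparagine, had 132 FPKM on average, close to SLC1A5, and SLC38A10 had 28.7 FPKM. The 10 genes together held 66.9% to 73.1% of the FPKM summed over all 43 transporters. Among the light chains of SLC3A2 (SLC7A5, SLC7A6, SLC7A7, SLC7A8, SLC7A10 and SLC7A11), SLC7A5 made up 80.4% of the summed FPKM in NK scramble replicate 1 and 65.4% to 66.8% in the other libraries. The sum of the light chains was 0.542 and 0.5 of the FPKM of SLC3A2 in NK scramble replicates 1 and 2 and 0.653 and 0.503 in NK shADAR1 replicates 1 and 2, so the heavy chain transcript exceeded its partners in every library. The ratio of SLC7A5 to SLC7A6 on the FPKM scale was 5.33 in NK scramble replicate 1 and 2.18 to 2.31 in the other libraries.

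NK scramble replicate 1 was the highest library in 7 of the 10 genes, among them SLC1A5, SLC7A5 and SLC43A1, carriers of glutamine or leucine. The glutamine carriers SLC38A1 and SLC38A2 were highest in other libraries. SLC1A5 (chr19:46774883-46788594, minus strand, GRCh38, GENCODE release 29) had 525 and 344 CPM in the control and 281 and 289 CPM in the knockdown libraries. The groups did not overlap, but the control libraries lay further apart than NK scramble replicate 2 did from the knockdown libraries. Its log2 fold change was -0.61 (SE 0.23), and -0.27 without NK scramble replicate 1. SLC7A5 (chr16:87830023-87869488, minus strand) had 234 and 126 CPM in the control and 128 and 109 CPM in the knockdown libraries, so that the groups overlapped. Its log2 fold change was also -0.61 (SE 0.27), and it was -0.10 without NK scramble replicate 1 and -0.99 without NK scramble replicate 2. SLC43A1 (chr11:57484534-57515786, minus strand), the other leucine carrier, had 40.4 CPM in NK scramble replicate 1 and 22.2 to 23.7 CPM in the other 3 libraries. Its fold change of -0.44 on the log2 scale (SE 0.27) turned to 0.05 without NK scramble replicate 1. SLC1A5, SLC7A5 and SLC43A1 are the genes with an E-box match among the promoter stretches printed above. SLC1A4, SLC3A2, SLC7A1 and SLC7A11 were also highest in NK scramble replicate 1, and no E-box is printed for them. Of these, SLC7A11 may have had no promoter window to search. A link between the motif and the levels was not tested.

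SLC3A2 (chr11:62856102-62888875, plus strand), the heavy chain, had 225 and 165 CPM in the control and 122 and 141 CPM in the knockdown libraries. Both knockdown libraries were below both control libraries, with a log2 fold change of -0.57 (SE 0.22), which was -0.33 without NK scramble replicate 1. This was the largest decrease among the 10 genes once that library was left out. SLC7A11 (chr4:138164097-138242349, minus strand), the light chain that imports cystine for glutathione, had 24.3 and 14.6 CPM in the control and 14.5 and 11.6 CPM in the knockdown libraries. Its groups were separated by a narrow margin, NK scramble replicate 2 lying next to NK shADAR1 replicate 1. Its log2 fold change was -0.58 (SE 0.27), and -0.17 without NK scramble replicate 1. SLC7A6 (chr16:68264516-68301823, plus strand), the third light chain, had 52.4 and 74.2 CPM in the control and 57.8 and 64 CPM in the knockdown libraries, the only one of the 10 genes that was lowest in NK scramble replicate 1. Its log2 fold change was -0.055 (SE 0.22) on counts, -0.29 without NK scramble replicate 1 and 0.063 on log2(FPKM + 1) in limma.

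SLC7A1 (chr13:29509410-29595688, minus strand) had 460 and 369 CPM in the control and 300 and 351 CPM in the knockdown libraries. It did not overlap between the groups, and its log2 fold change was -0.35 (SE 0.21), or -0.18 without NK scramble replicate 1. SLC1A4 (chr2:64988477-65023865, plus strand) had 190 and 143 CPM in the control and 129 and 145 CPM in the knockdown libraries, so that only NK scramble replicate 1 stood out. Its log2 fold change was -0.28 (SE 0.21), and -0.062 without that library. SLC38A1 (chr12:46183063-46270017, minus strand) had 264 and 357 CPM in the control and 343 and 254 CPM in the knockdown libraries. SLC38A2 (chr12:46358189-46372867, minus strand), its neighbour on the chromosome and a transporter known for its induction in amino acid starvation, had 94.1 and 112 CPM in the control and 116 and 80.7 CPM in the knockdown libraries. In both SLC38 genes the groups overlapped fully and NK scramble replicate 2 and NK shADAR1 replicate 1 were the high libraries. Their log2 fold changes were -0.055 (SE 0.23) and -0.064 (SE 0.23), or -0.26 and -0.19 without NK scramble replicate 1.

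**Figure D2:**
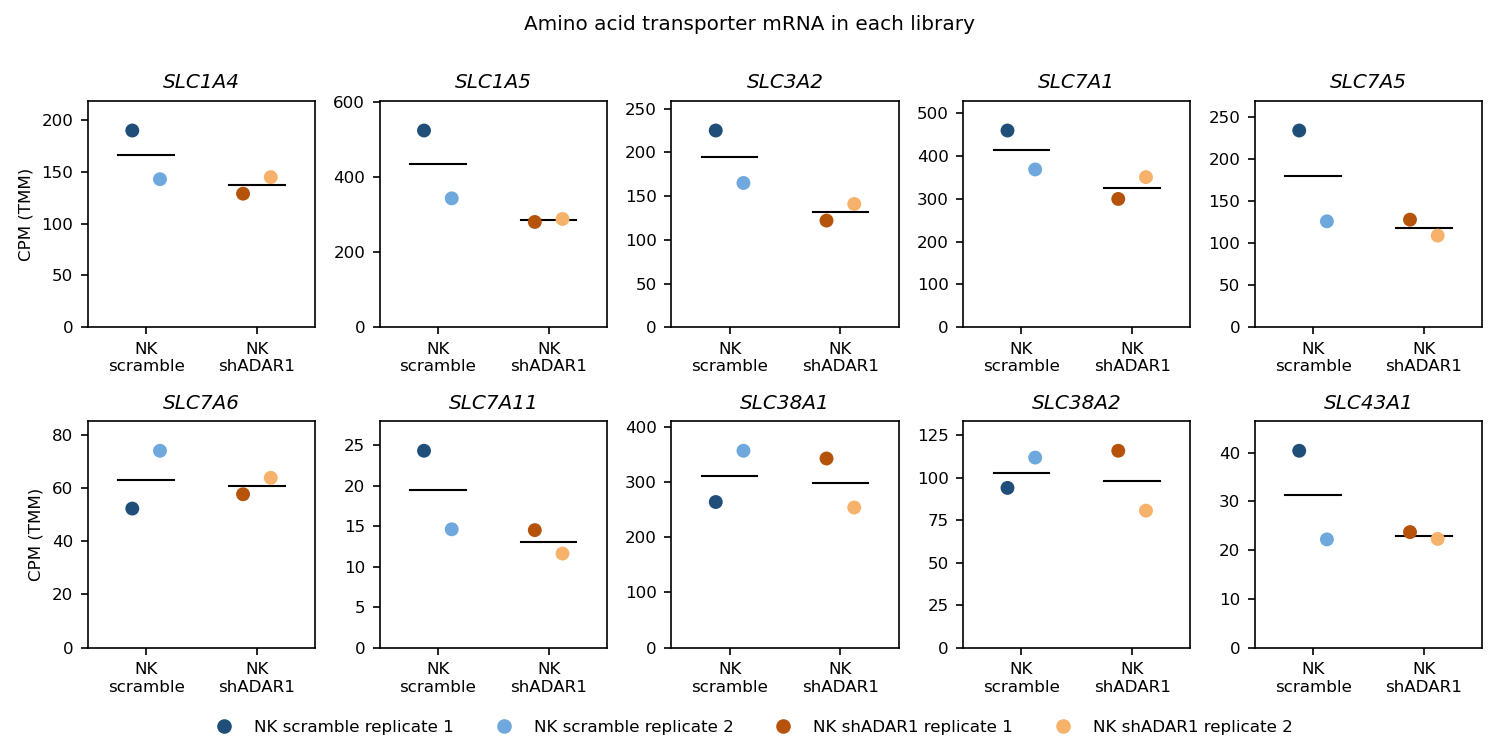
CPM (TMM-scaled, linear axes from 0) of each of the 10 transporters, with 1 point for each library and a line at the mean of the 2 libraries of a group. NK scramble replicate 1 is the highest library in 7 of 10 genes, and SLC7A6, SLC38A1 and SLC38A2 show another order.

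Over all 11810 genes tested, 0 passed an adjusted p of 0.05 and a 1.5-fold difference (0%), and 0 of the 10 transporters did, each with an adjusted p of 1.00 under the quasi-likelihood model of edgeR. DESeq2 also called 0. With the same program and the same thresholds, the study reported differentially expressed genes between these groups. That outcome was not recovered here from the deposited counts, and the reason for the difference was not tested. At an unadjusted p under 0.05, 293 of 11810 genes passed in edgeR and 289 of 15605 in DESeq2, which was run without the count filter. In edgeR this held for SLC1A5 and SLC3A2, both lower, that is 2 of 10 beside 0.779% of all genes tested, and for 0 of 10 in the higher direction beside 1.70%. All 10 log2 fold changes were below 0 on counts (SLC7A6 was above 0 on FPKM), with a median of -0.40, beside 5905 of 11810 tested genes below 0. That median was -0.18 without NK scramble replicate 1. Both knockdown libraries lay below both control libraries in 4 of 10, SLC1A5, SLC3A2, SLC7A1 and SLC7A11, beside 12.6% of all genes, and above them in 0 of 10, beside 13.3%. Nothing is read from these counts, as the family was named with this contrast in view. In bulk RNA, fewer cells with a transcript and less of it per cell cannot be told apart.

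**Figure D3:**
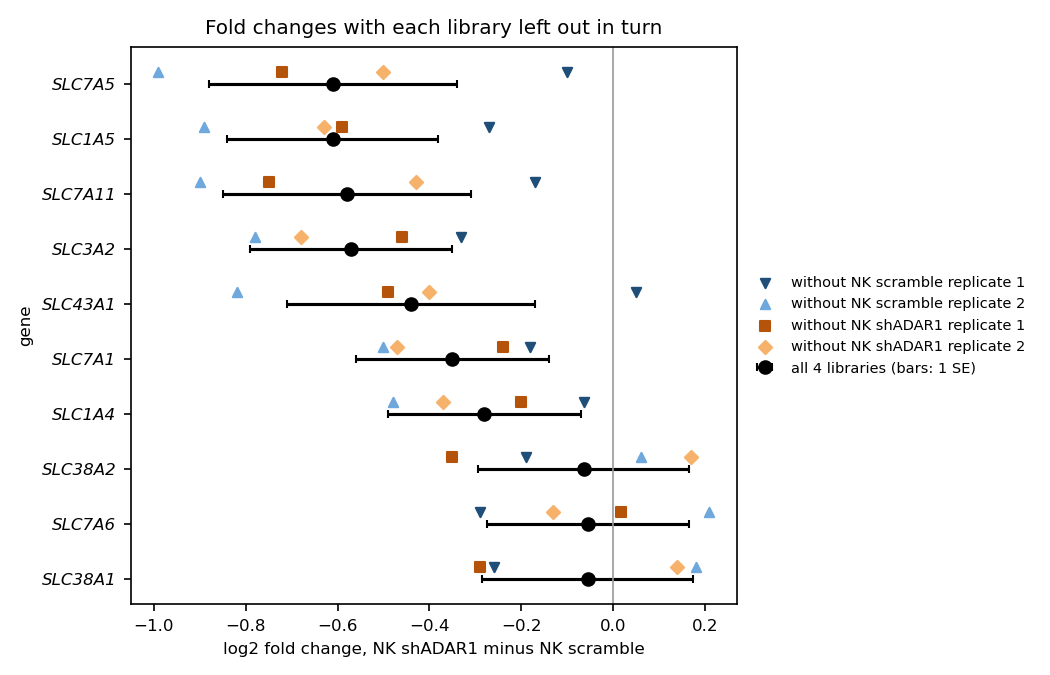
Log2 fold change of each transporter (NK shADAR1 minus NK scramble) from edgeR with all 4 libraries (black, bars of 1 SE) and with each library left out (colored symbols). Without NK scramble replicate 1, values lie between -0.33 and 0.05, and without NK scramble replicate 2 those of SLC7A5, SLC7A11 and SLC1A5 are -0.99, -0.90 and -0.89.

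Libraries of a group were also compared with each other, with the suffixes read as replicate numbers. From NK scramble replicate 1 to replicate 2 the transporters moved in both directions. SLC1A4, SLC1A5, SLC3A2, SLC7A1, SLC7A5, SLC7A11 and SLC43A1 were lower in replicate 2, by log2 ratios of -0.32 for SLC7A1 to -0.89 for SLC7A5. All 7 lay below the lower quartile of all genes tested, which was -0.26. SLC7A6, SLC38A1 and SLC38A2 were higher in replicate 2, with log2 ratios of 0.50, 0.44 and 0.25, above the upper quartile of 0.25. NK scramble replicate 1 was the highest of the 4 libraries in the first 7 genes, and in 26.5% of all genes tested. Between NK shADAR1 replicates the same ratio ranged from -0.53 for SLC38A2 to 0.23 for SLC7A1, with 5 of 10 genes below 0. There, 3 genes, SLC7A11, SLC38A1 and SLC38A2, lay below the lower quartile of -0.28 and none above the upper quartile of 0.24. With 2 libraries in each group, no test was made of these differences.

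**Figure D4:**
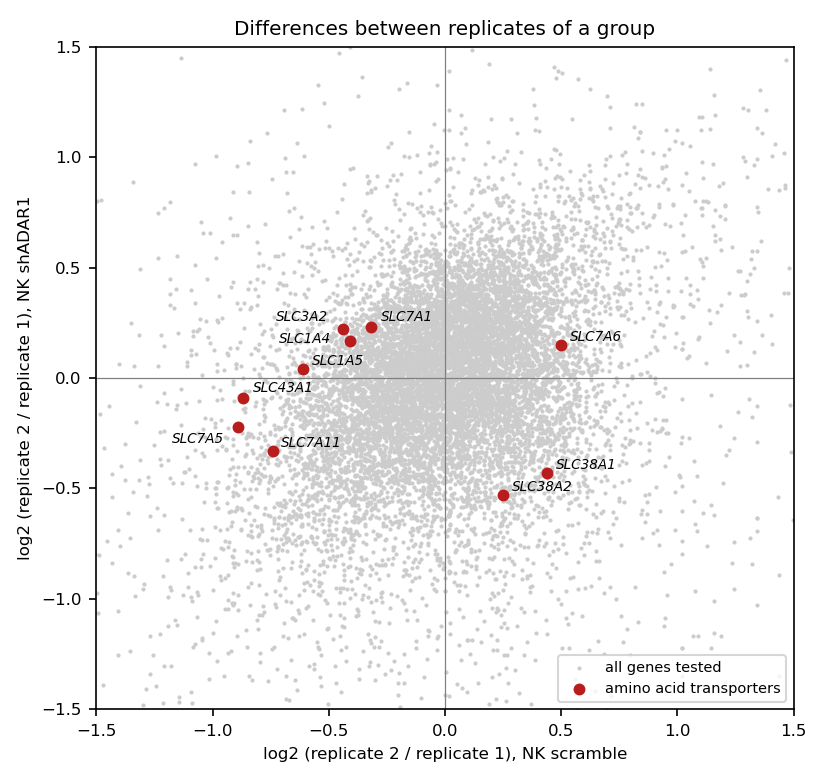
Log2 ratio of replicate 2 to replicate 1 in NK scramble (x axis) and NK shADAR1 (y axis) libraries, for all genes tested (gray, genes beyond 1.5 on either axis not shown) and the 10 transporters (red). In NK scramble, 7 transporters lie at -0.32 or below and 3 at 0.25 or above, whereas in NK shADAR1 all lie between -0.53 and 0.23.

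The count of a transporter can include reads of an overlapping gene, since the use of strand in the counting is not given in the sources used here. SLC7A6OS, on the opposite strand, covers 44.4% of the annotated exonic bases of SLC7A6, and had 46.3 and 46.5 CPM in the control and 42.9 and 38.6 CPM in the knockdown libraries. For SLC1A5 an antisense transcript covers 23.4% of exonic bases, and for SLC7A11 and SLC7A5 such transcripts cover 8.97% and 5.71%. The deposited count and FPKM of a gene together give the transcript length that was used. It was 7.34 kb for SLC7A1 in all 4 libraries but 4.74 to 5.51 kb for SLC7A6, the lowest in NK shADAR1 replicate 1.

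The genes of pathways tied to these transporters were followed in 7 lists. In the ATF4 branch of the amino acid response, 16 of 19 tested genes had a lower value in NK shADAR1 and 3 a higher one, with a median log2 fold change of -0.32 beside 2.8e-05 for all genes. At an unadjusted p under 0.05, 5 were lower and 0 higher, and 0 passed after adjustment. SESN2, a leucine sensor that restrains mTORC1, had 82.2 and 49.7 CPM in the control and 32.9 and 36 CPM in the knockdown libraries, a log2 fold change of -0.94 (SE 0.25), or -0.53 without NK scramble replicate 1. PSAT1, of serine synthesis, and MTHFD2, of mitochondrial folate metabolism, had log2 fold changes of -0.70 (SE 0.25) and -0.47 (SE 0.20), or -0.36 and -0.34 without that library. ATF3, a stress-induced factor, had -1.20 (SE 0.42), or -0.95 without it, at low levels of 2.64 to 13.5 CPM. The fifth gene, CEBPB, named after its values were seen, had -1.06 (SE 0.45), and -0.13 without NK scramble replicate 1. ATF4 itself had 546 and 445 CPM in the control and 368 and 424 CPM in the knockdown libraries. DDIT4, an inhibitor of mTORC1 signaling, had 553 and 348 CPM in the control and 276 and 430 CPM in the knockdown libraries. Their log2 fold changes were -0.32 (SE 0.21) and -0.35 (SE 0.28), or -0.17 and 0.019 without NK scramble replicate 1. NK scramble replicate 1 was the highest library in 68.4% of this list, 70% of the transporters and 26.5% of all genes tested. The share was 71.4% in the list of lysosomal transporters and 33.3% to 40% in the other lists, all described below. Without NK scramble replicate 1, the median of the ATF4 list was -0.17.

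Among IL-2 signaling genes and MYC, 11 of 17 had lower and 6 higher values, with a median of -0.13, which was -0.071 without NK scramble replicate 1 and -0.02 in limma on log2(FPKM + 1). CISH, a feedback inhibitor induced by interleukin 2, was the 1 gene with an unadjusted p under 0.05, at a log2 fold change of -0.73 (SE 0.25), or -0.50 without that library. IL2RG and IL2RB, subunits of the interleukin 2 receptor, had log2 fold changes of 0.069 and 0.041. MYC, named after its values were seen, had 558 and 378 CPM in the control and 319 and 350 CPM in the knockdown libraries. Its libraries stood in the same order as those of SLC1A5, SLC3A2 and SLC7A1, of which SLC1A5 alone has an E-box match printed above. SLC7A5 and SLC43A1 had another order, in which NK shADAR1 replicate 1 exceeded NK scramble replicate 2. With 4 libraries, likeness of order cannot be ranked. The MYC log2 fold change was -0.48 (SE 0.23), or -0.18 without NK scramble replicate 1. The part of either factor in the transporter levels was not tested.

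In the other lists, few genes had an unadjusted p under 0.05. Of the 8 other tested plasma membrane transporters, 7 had a lower value and 1 a higher, with a median of -0.19, and 0 had an unadjusted p under 0.05. Without NK scramble replicate 1, 4 were lower and 4 higher, with a median of -0.056, and the median was -0.055 in limma on log2(FPKM + 1). SLC38A5 had 212 and 198 CPM in the control and 175 and 160 CPM in the knockdown libraries, without overlap, at a log2 fold change of -0.29 (SE 0.19), and SLC38A10 had -0.029 (SE 0.24), or -0.24 and 0.21 without that library. The lysosomal transporters had 5 lower and 2 higher of 7, with 0 at an unadjusted p under 0.05 and a median of -0.13, which was 0.068 without NK scramble replicate 1. MFSD12, needed for cysteine import into lysosomes, had the highest mean FPKM there and a log2 fold change of -0.37 (SE 0.34), which turned to 0.23 without that library. SLC38A9, the arginine sensor of the lysosome, exceeded MFSD12 in FPKM in both replicate 2 libraries and had 0.045 (SE 0.22), or -0.13 without NK scramble replicate 1. The mTORC1 list was split, with 15 lower and 18 higher of 33 and a median of 0.039, or 0.07 without NK scramble replicate 1, and SESN2 was its 1 gene with an unadjusted p under 0.05. RHEB, the activator of mTORC1, had -0.31 (SE 0.21) and LAMTOR4, of its lysosomal scaffold, 0.17 (SE 0.22), or -0.12 and 0.035 without that library. For enzymes of glutamine, glutamate and branched-chain amino acid use, 14 of 15 values were lower and 1 higher, with a median of -0.12, or -0.088 without NK scramble replicate 1. GPT2, which makes alanine from glutamate, was the 1 gene below the unadjusted threshold, with 72 and 38.3 CPM in the control and 26.5 and 35.8 CPM in the knockdown libraries. Its log2 fold change was -0.83 (SE 0.29), or -0.30 without NK scramble replicate 1. GLUL, which makes glutamine, and GLUD1, which breaks down glutamate, had log2 fold changes of -0.18 and -0.063. The cysteine and glutathione list had 10 lower and 5 higher of 15, a median of -0.054 (-0.029 without that library) and 0 genes at an unadjusted p under 0.05. TXN and GPX4, its most abundant genes, had -0.054 and -0.037. No gene of the 7 lists passed after adjustment.

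**Figure D5:**
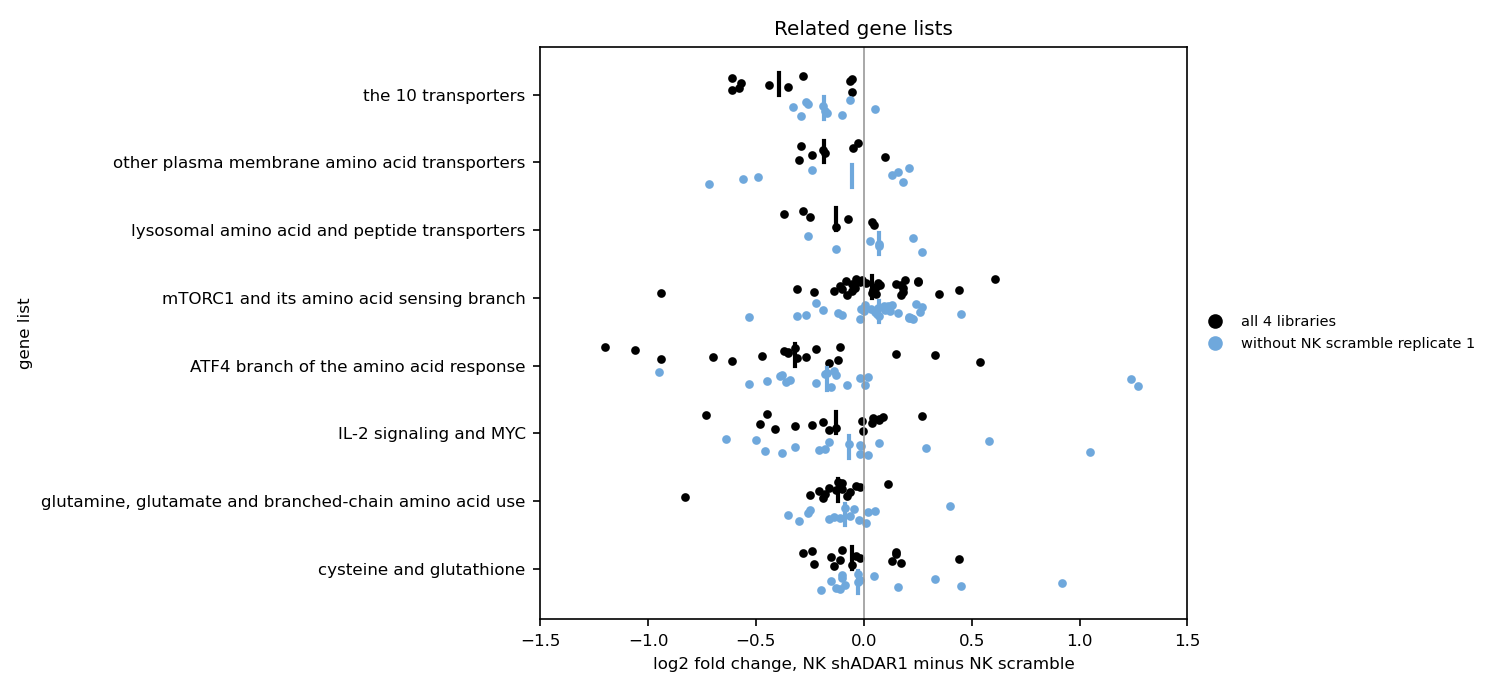
Log2 fold change of every tested gene of the 10 transporters and the 7 related lists, with all 4 libraries (black) and without NK scramble replicate 1 (blue), and a bar at each median. CASTOR1, with counts in 2 of 4 libraries, lies beyond the axis without that library. The medians of the transporters and of the ATF4 list move from -0.40 to -0.18 and from -0.32 to -0.17.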

How the data were processed

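Oligo(dT)-selected RNA was sequenced on an Illumina NovaSeq, and the submitters' processing notes name fastp 0.18.0. The aligner, counting program and genome build are not given in the sources used here. The authors deposited estimated counts per gene, of which 87.6% are whole numbers and none are scaled for depth, and FPKM values, which are scaled by length and mapped fragments. Counts were rounded, filtered with filterByExpr (minimum count 10), TMM-scaled and fitted with the quasi-likelihood test of edgeR 4.0.16 in R 4.3.3, without covariates, on 11810 genes, with Benjamini-Hochberg adjustment. Genes were called at an adjusted p below 0.05 together with a 1.5-fold or larger difference. SE is the log2 fold change divided by the square root of the F statistic. FPKM was tested only as an alternative, with limma 3.58.1 at pseudocounts of 1 and 0.1. Further alternatives were RLE or upper quartile scaling, DESeq2 1.42.0, 2 other count filters, a replicate block and leaving out each library. The fit was tested on simulated data, in which the set changes were larger than those of the transporters. That test does not show whether changes of their size would be called.

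The 10 genes and the 7 lists were chosen with earlier results of these data known. Named from each list were genes with an unadjusted p under 0.05, at most 4 with the smallest p, and the 2 of highest mean FPKM. Symbols were matched for 20301 of 20323 identifiers. Gene positions are those of GENCODE release 29. The design text gives the libraries of a group as independent biological replicates. At a depth of 37881691 to 39960490 counts the precision is limited by having 2 libraries in each group.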

Additional observations from a re-analysis of the deposited data

How the results depend on the processing

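None of the 10 transporters was called at an adjusted p under 0.05 by edgeR, DESeq2 or limma under any alternative run. Over all genes, 0 were called in edgeR, 13 with the replicate number as a block, 213 (SLC1A5 among them) with an unadjusted p under 0.05 and the same fold change, and 1 to 47 when 1 library was left out, the most without NK scramble replicate 1. Same-numbered libraries deviated together across genes (r = 0.308), but 2 pairs do not show that the numbers pair the samples, and with the block the smallest adjusted p of a transporter was 0.376, for SLC1A5. The median of the 10 log2 fold changes was -0.64 to -0.18 when 1 library was left out, and 6 to 8 genes then had groups without overlap instead of 4, beside 60.1% to 67.1% of all genes, as fewer libraries separate more easily. SLC1A5 held 32.1% of the summed FPKM of the 10 and 20.8% of their summed CPM. Of 120 values of single transporters under the alternatives, 111 kept their direction and 9 did not. SLC7A6 was 0.069 and 0.063 in limma with pseudocounts of 0.1 and 1. When 1 library was left out, log2 fold changes ranged from -0.29 to 0.21 for SLC7A6 (0.018 without NK shADAR1 replicate 1), from -0.29 to 0.18 for SLC38A1 (0.14 without NK shADAR1 replicate 2), from -0.35 to 0.17 for SLC38A2 (0.062 without NK scramble replicate 2) and from -0.82 to 0.05 for SLC43A1. List medians that changed sign ranged from -0.32 to 0.068 for lysosomal transporters, from -0.019 to 0.07 for mTORC1 (-0.0015 without NK shADAR1 replicate 1) and from -0.21 to 0.019 for glutamine use. The median of the IL-2 list was -0.023 and -0.02 in limma and -0.036 with the replicate block. The cause was not tested.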
